A study of Mus musculus with 246 samples.

Results

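Transcript levels of 10 genes that glucocorticoid hormones are known to induce (Sgk1, Tsc22d3, Per1, Zbtb16, Klf9, Nfkbia, Ddit4, Cdkn1a, Plin4 and Mt2) were followed across the mouse brain. They were taken by gene name from a table of 56691 genes, and all 10 were counted in every library. Fkbp5, which encodes the FKBP51 protein that the study inhibited, was read beside them. RNA was sequenced from 6 brain regions of each of 41 adult male outbred CD1 mice. The regions were the medial prefrontal cortex (PFC), the anterior cingulate cortex (ACC), the shell of the nucleus accumbens (Nacc), the basolateral amygdala (BLA), the dorsomedial thalamus (DMT) and the ventral hippocampus (HC). Early life adversity (ELA) was limited bedding and nesting material for dam and litter in the days after birth. Ctrl_Veh mice (labelled Ctrl_Vehicle) were reared in standard nests by dams given an empty depot gel, ELA_Veh mice (ELA_Vehicle) were reared under ELA by dams given the same empty gel, and ELA_SAFit2 mice were reared under ELA by dams given the gel loaded with SAFit2, an inhibitor of FKBP51. The gel was given once, into the dam, so the pups met the drug through the milk. As adults, 21 mice were killed without a social encounter (7 of each condition), and 20 after 10 min with an unfamiliar mouse (6 Ctrl_Veh, 7 ELA_Veh and 7 ELA_SAFit2). No treatment with a glucocorticoid and no hormone level came with the libraries, so the name of the gene group states what is known of the genes and not something measured in these mice.

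Glucocorticoids, corticosterone in mice, are released from the adrenal glands during stress and with the daily rhythm. They bind the glucocorticoid receptor, which moves to the nucleus, binds DNA at pairs of short sites in opposite orientation and changes transcription of nearby genes. FKBP51 lowers the receptor's affinity for the hormone and is itself induced by it, which closes a short feedback loop. The 10 genes act in different pathways. Sgk1 is a kinase that regulates ion channels and transporters, and Tsc22d3 (GILZ) and Nfkbia (IkappaBalpha) restrain inflammatory transcription. Per1 is a component of the circadian clock, Klf9 and Zbtb16 are zinc finger transcription factors, and Ddit4 (REDD1) inhibits mTORC1. Cdkn1a (p21) inhibits cyclin-dependent kinases, Plin4 is a perilipin that coats lipid droplets, and Mt2 is a metallothionein that binds zinc and copper. Several have further inducers, such as p53 for Cdkn1a, metals for Mt2, neuronal activity for Per1 and NF-kappaB for Nfkbia.

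Promoter windows were read from RefSeq (assembly GRCm38.p6; the deposited table was made on GRCm39) for 9 of the 10 genes, and the 250 bases before each of their 18 annotated starts were searched on both strands. Zbtb16 had no entry. The 3 windows shown are the one that held the paired receptor motif, the one with the most metal response motifs, and that of the clock gene. In the first, upstream of the fifth annotated start of Sgk1 (chr10:21993640-21993889, + strand), capitals mark the receptor's single site TGTTCT in either orientation. In the second, upstream of Mt2 (chr8:94172368-94172617, + strand), capitals mark the metal response motif TGCNCNC in either orientation. In the third, upstream of the first annotated start of Per1 (chr11:69098699-69098948, + strand), capitals mark TGACG, one arm of the motif bound by CREB, and the E-box CACGTG, to which clock proteins bind.
Sgk1: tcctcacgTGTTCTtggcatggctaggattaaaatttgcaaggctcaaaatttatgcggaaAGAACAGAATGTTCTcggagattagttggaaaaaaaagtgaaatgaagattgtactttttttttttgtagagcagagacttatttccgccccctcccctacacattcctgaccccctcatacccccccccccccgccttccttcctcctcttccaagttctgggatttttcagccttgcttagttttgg
Mt2: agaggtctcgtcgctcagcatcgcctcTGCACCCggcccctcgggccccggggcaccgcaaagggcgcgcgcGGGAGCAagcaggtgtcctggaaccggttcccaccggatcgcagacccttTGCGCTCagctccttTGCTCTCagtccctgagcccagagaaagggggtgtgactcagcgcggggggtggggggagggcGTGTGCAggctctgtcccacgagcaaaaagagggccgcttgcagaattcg
Per1: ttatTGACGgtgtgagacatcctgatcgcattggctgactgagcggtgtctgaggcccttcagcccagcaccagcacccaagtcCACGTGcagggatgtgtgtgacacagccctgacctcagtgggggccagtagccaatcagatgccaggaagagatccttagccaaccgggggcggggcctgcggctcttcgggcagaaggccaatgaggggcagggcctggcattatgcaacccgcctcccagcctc
The Sgk1 window held the paired form of the receptor motif, GNACA and TGTNC with 3 free bases between them, 188 bases before the start. It overlaps 2 of the 3 single sites marked, and the other overlaps an E-box (CACGTG) that is not marked in full. The paired form was present in 127 of 32851 mouse promoters (0.387%) and the single site in 16.1%. No other window of these genes held the paired form. The Mt2 window held 5 metal response motifs, 223, 178, 128, 113 and 50 bases before the start. At least 1 such motif was present in 44.4% of all promoters, and at least 5 in 0.344%. In Per1 the E-box lay 166 bases before the start (6.02% of all promoters hold one), and TGACG lay farther upstream, near the window's edge (17.8%). The window of Plin4 (chr17:56109783-56110032, - strand) held neither form of the receptor motif, and those of both annotated starts of Cdkn1a held none of the motifs searched. A match describes the letters of a window, not a bound site, and receptor binding far from a start was outside these windows.

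Libraries held between 20804219 and 43351397 counts (median 28844763). The deepest of the 10 genes was Klf9, with 3484 to 10516 counts per library, and the shallowest Plin4, with 10 to 1860 (median 59). No library gave 0 counts for any of them. Levels are given as CPM, counts divided by the library's total and put on a common scale with TMM factors. Median summed levels of marker genes followed the labelled regions: striatal neuron markers reached a median of 2730 CPM in Nacc against 57.9 CPM in DMT, and thalamic markers 2479 CPM in DMT against 38.7 CPM in ACC. Single libraries overlapped, since striatal markers ran from 969 to 3679 CPM in Nacc, from 397 to 2770 CPM in BLA and up to 950 CPM in PFC, and cortical markers reached 1307 CPM in Nacc. BLA libraries also held choroid plexus markers (23.05 to 5765 CPM). In Nacc, 12 of 41 libraries resembled, over 60 genes that differ stably between mice, a mouse other than the one on their label, and no library of the other 5 regions did. The 12 cross the line between mice with and without the social encounter, so the social differences in Nacc are given with and without them, while the Nacc levels, the sums over regions and the condition tests below include them. Runs of 8 consecutive mouse numbers held mice of 1 set only, so the encounter and anything else that differed between the runs of mice cannot be told apart. Punched tissue mixes cell types, so fewer cells of a type and less RNA per cell cannot be told apart either.

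The 10 genes divided into some with a steep gradient across regions and some at nearly the same level everywhere. Zbtb16 had the steepest gradient. It was highest in HC, at 95.7 ± 15.2 CPM (SD, n = 41 mice), followed by ACC (74.4 ± 14.8), PFC (63.03 ± 11.1), BLA (27.0 ± 11.6), DMT (13.1 ± 5.86) and Nacc (11.9 ± 5.66), so that the highest region exceeded the lowest 8.03-fold. DMT and Nacc were the only neighbours in that order that did not pass the test (log2 difference 0.14, adjusted p = 0.111). Cdkn1a ran in another order, from 22.9 ± 6.16 CPM in PFC and 21.1 ± 4.30 in ACC to 4.48 ± 1.63 in HC, a 5.11-fold span. PFC and ACC did not pass the test against each other (adjusted p = 0.108), whereas every further step down passed.

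Tsc22d3 and Mt2 were highest in DMT, and so was Plin4 by its mean only. Tsc22d3 reached 79.9 ± 16.4 CPM there and stood between 32.4 ± 9.61 (BLA) and 38.9 ± 8.73 (ACC) in the other regions. The step from DMT to ACC was 1.04 on the log2 scale (adjusted p = 6.23e-66), while ACC and Nacc (adjusted p = 0.103) and Nacc and HC (adjusted p = 0.960) were not separated. Mt2 was 73.1 ± 15.7 CPM in DMT and 65.8 ± 15.3 in HC, and 36.6 ± 9.37 in ACC, where it was lowest. Plin4 had means of 6.47 CPM in DMT and 2.14 CPM in PFC, with SDs above the means (11.1 and 3.30), and 1 mouse lay at 71.2 CPM in DMT and 21.01 CPM in PFC. DMT and BLA were not separated for Plin4 (log2 difference 0.15, adjusted p = 0.189). Its median was 3.31 CPM in DMT and 3.36 CPM in BLA. DMT is rich in myelin (oligodendrocyte markers had a median of 5842 CPM there against 1607 CPM in PFC), and the part of cell composition in these gradients was not tested.

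Ddit4, which inhibits mTORC1, was highest in HC (40.4 ± 5.78 CPM) and lowest in PFC (20.3 ± 3.23), and all 15 of its pairs of regions differed. The remaining genes were flatter. Per1 stood out in Nacc (114 ± 17.04 CPM) and was lowest in HC (79.3 ± 5.99), with DMT, BLA, PFC and ACC not separated from each neighbour in between. Klf9 spanned 1.32-fold (236 ± 22.4 CPM in ACC to 179 ± 26.6 in BLA), Sgk1 1.29-fold (54.5 ± 8.53 in BLA to 42.3 ± 3.77 in PFC) and Nfkbia 1.27-fold (13.5 ± 1.62 in DMT to 10.6 ± 1.59 in PFC). Over the 10 genes, 126 of 150 pairs of regions passed the test, against 76.7% of all gene and pair combinations in the table, with the mouse as a block since each mouse gave all 6 regions. In the 21 mice without the encounter alone the count was 112.

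**Figure D1:**
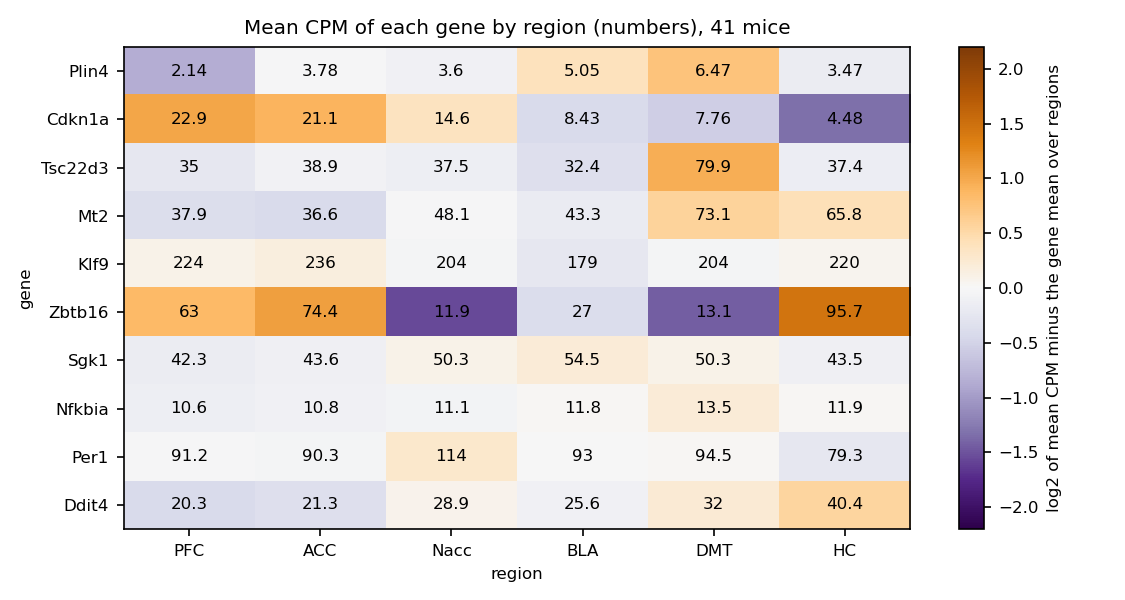
Mean level of each gene (rows) in each of the 6 regions (columns), with the mean CPM over 41 mice printed in each cell and the colour showing log2 of that mean minus the gene's own average over regions. Zbtb16 runs from 95.7 CPM in HC to 11.9 in Nacc, Cdkn1a from 22.9 in PFC to 4.48 in HC, and Tsc22d3 stands at 79.9 in DMT; rows are not to be compared with each other, since CPM is not corrected for gene length.

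After the social encounter, 15 of the 60 gene and region combinations were higher and none was lower (edgeR's quasi-likelihood test, adjusted p under 0.05 over all genes of the region). Plin4 rose in 5 regions, Cdkn1a in 4, Tsc22d3 in 3, Klf9 in 2 and Mt2 in 1, while Sgk1, Per1, Nfkbia, Ddit4 and Zbtb16 passed in no region. Of all gene and region combinations in the table, 2.64% passed in either direction. By region, 7.4% of all genes passed in PFC, 4.15% in ACC, 1.49% in BLA, 1.6% in DMT, 1.21% in HC and 0 in Nacc. The share of all genes that rose was 4.81% in PFC (4 of the 10 genes), 2.42% in ACC (4), 0.825% in BLA (2), 1.04% in DMT (4), 0.821% in HC (1) and 0 in Nacc (0). The median log2 difference of the 10 genes was 0.17 in PFC, 0.13 in ACC, 0.07 in BLA, 0.12 in DMT, 0.13 in HC and 0.03 in Nacc, where the median of all genes was within 0.01 of 0 in each region.

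Plin4, the lipid droplet protein, changed most. In PFC it was 0.365, 0.809 and 1.29 CPM (lowest, median and highest) in the 21 mice without the encounter and 0.661, 2.07 and 21.01 CPM in the 20 mice after it. In ACC the values were 0.599, 1.07 and 2.11 CPM against 1.22, 3.57 and 39.7 CPM, and in DMT 1.11, 1.95 and 4.65 CPM against 2.78, 7.18 and 71.2 CPM. The groups overlapped little: 18 of 20 mice after the encounter lay above every mouse without it in PFC, 16 in ACC, 17 in DMT, 17 in HC and 14 in BLA. In BLA the levels were 1.15, 2.02 and 4.60 CPM against 1.98, 5.96 and 45.7 CPM, and in HC 0.715, 1.36 and 2.36 CPM against 1.72, 3.46 and 34.5 CPM. These differences corresponded to 4.02-fold in PFC (95% interval 2.68 to 6.03, adjusted p = 1.53e-05), 5.85-fold in ACC (3.68 to 9.30, adjusted p = 9.40e-06), 5.17-fold in DMT (3.45 to 7.75, adjusted p = 4.14e-06), 3.65-fold in HC (2.51 to 5.30, adjusted p = 5.50e-05) and 3.41-fold in BLA (2.37 to 4.91, adjusted p = 0.000197). Other lipid droplet genes did not pass the test in any region, 0 of the 6 or 7 measured in each (Plin2, Plin3 and Pnpla2 among them).

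Nacc was the exception for Plin4, and the exception depended on the 12 libraries that resembled another mouse. With all libraries the levels were 0.522, 1.26 and 6.41 CPM without and 0.801, 3.23 and 42.7 CPM with the encounter (log2 difference 1.55 ± 0.40 SE, adjusted p = 1.0, unadjusted p = 0.00041). No gene of the table passed in Nacc, with 391 genes (2.46%) at an unadjusted p under 0.05 and 0 called by DESeq2. Without the 12 libraries the levels were 0.522, 1.19 and 1.85 CPM (n = 15) against 1.52, 3.90 and 42.7 CPM (n = 14), and 13 of the 14 lay above all 15. The log2 difference was then 2.51 ± 0.39 and passed (adjusted p = 0.00404), as 1 of 4 genes called (0.0256% of those tested). Tsc22d3 (0.42, adjusted p = 0.460) and Mt2 (0.34, adjusted p = 0.5001) did not pass in Nacc in that fit.

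**Figure D2:**
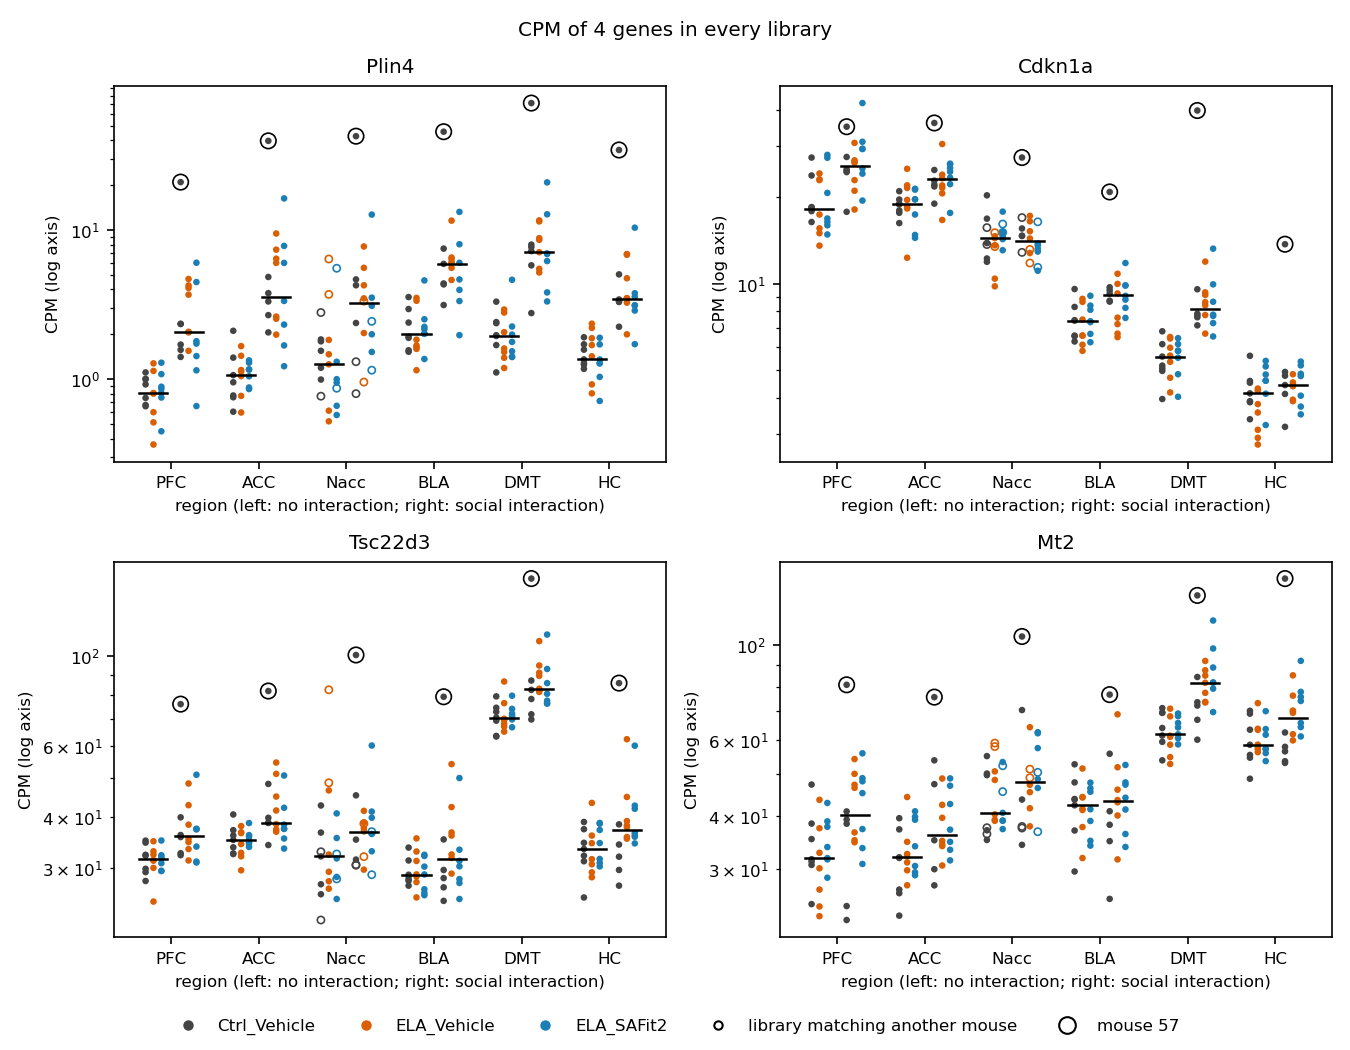
CPM on a log axis of Plin4, Cdkn1a, Tsc22d3 and Mt2 in every library by region, with mice without the encounter on the left and mice after it on the right of each region; each point is 1 library, colours are conditions, bars are medians, open points are the Nacc libraries that resembled another mouse, and large rings mark mouse 57. For Plin4, 14 to 18 of 20 mice after the encounter lie above all without it in 5 regions and 3 in Nacc, for Cdkn1a 18 do in DMT, and mouse 57 is the highest after the encounter in all 6 regions for Plin4, Tsc22d3 and Mt2 and in 5 for Cdkn1a.

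Cdkn1a, the cell cycle inhibitor, rose in PFC, ACC, BLA and DMT. Its largest change was in DMT, where it was 3.97, 5.58 and 6.83 CPM without the encounter and 6.55, 8.13 and 39.96 CPM after it. There 18 of 20 mice after the encounter exceeded all 21 without it, a 1.84-fold difference (95% interval 1.49 to 2.27, adjusted p = 0.000832). In the other 3 regions the log2 differences were 0.43 ± 0.10 (PFC), 0.32 ± 0.07 (ACC) and 0.36 ± 0.09 (BLA), and in HC (0.25, adjusted p = 0.338) and Nacc (0.05) it did not pass. A test of each region's difference against the mean of the other regions, chosen after the values were seen, placed Cdkn1a in DMT 0.51 ± 0.08 above the others on the log2 scale (adjusted p = 3.11e-05; 0.0805% of all genes passed for DMT). The value was 0.50 without the 12 Nacc libraries and 0.45 without Nacc. The same test gave Cdkn1a in Nacc at -0.37 (adjusted p = 0.00428) and Plin4 in Nacc at -0.66 (adjusted p = 0.0454), with 0.265% of all genes passing, but without the 12 libraries these were -0.31 (adjusted p = 1.0) and 0.16 (adjusted p = 1.0). Of 10 further p53 target genes, Zmat3 rose in ACC (0.09) and Ccng1 in PFC (0.12), and the others did not pass in any region.

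Tsc22d3, which encodes GILZ, shifted by a similar amount everywhere. In PFC it was 24.7, 31.6 and 35.0 CPM without the encounter and 30.9, 35.9 and 76.1 CPM after it, and 12 of 20 mice exceeded all without it. In DMT the values were 63.3, 70.4 and 86.5 CPM against 69.7, 82.8 and 155 CPM. The log2 differences of 0.31 ± 0.08 in PFC, 0.30 ± 0.07 in ACC and 0.32 ± 0.07 in DMT passed. Those of 0.30 in HC (adjusted p = 0.150), 0.27 in BLA (adjusted p = 0.163) and 0.22 in Nacc did not, although they were of about the same size, so no difference between regions was shown for this gene. Klf9 rose by 0.16 in PFC (adjusted p = 0.00459) and by 0.17 in ACC (adjusted p = 0.000449), from a median of 218.5 to 246.1 CPM in the latter, with 19 of 20 mice above the median without the encounter.

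Mt2, the metallothionein, passed in DMT and in no other region, at 52.8, 61.9 and 71.2 CPM without the encounter and 60.1, 81.7 and 131 CPM after it (log2 difference 0.40 ± 0.06, adjusted p = 0.00056). There 17 of 20 mice lay above all without it. In PFC (0.34, adjusted p = 0.0504) and ACC (0.30, adjusted p = 0.0578) it stood just outside the threshold. Among 6 other metal response genes, Mt1 included, none passed in any region. Zbtb16 ranged from -0.03 (BLA) to 0.21 (Nacc) with a lowest adjusted p of 0.151.

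The remaining 4 genes gave no call, with small differences and narrow intervals. Per1 in PFC was 74.2, 87.1 and 131 CPM without the encounter and 66.1, 90.8 and 110 CPM after it, and no mouse after it exceeded the highest without it. Its log2 differences over the 6 regions lay between -0.09 and 0.05, those of Sgk1 between -0.03 and 0.08, those of Nfkbia between -0.05 and 0.08 and those of Ddit4 between -0.13 and 0.05. In PFC the 95% intervals were -0.12 to 0.16 for Per1, -0.08 to 0.08 for Sgk1, -0.12 to 0.16 for Nfkbia and -0.27 to 0.01 for Ddit4. Sgk1, whose window held the paired receptor motif shown above, was 33.9, 42.6 and 50.1 CPM without and 31.3, 42.6 and 49.7 CPM with the encounter in PFC.

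**Figure D3:**
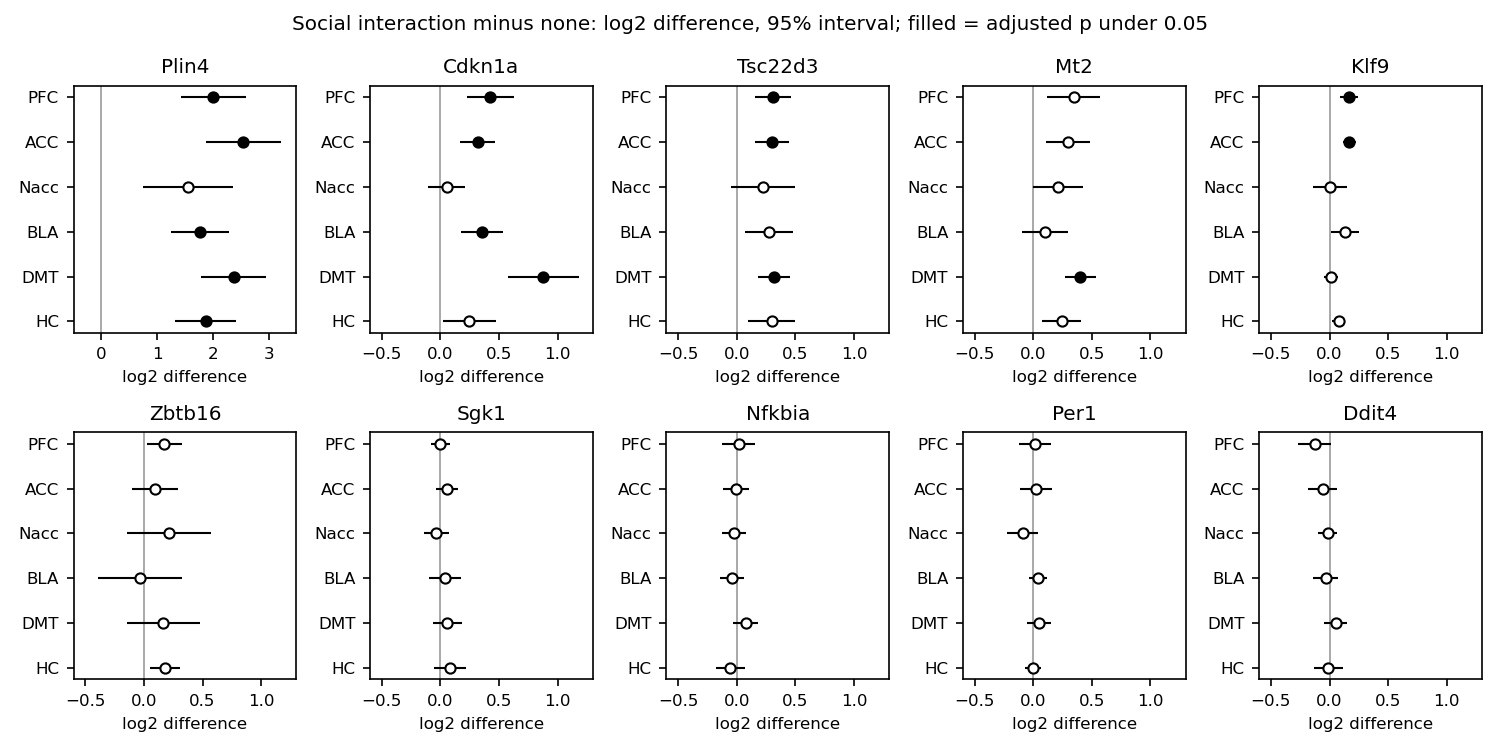
Log2 difference between mice after the encounter and mice without it for each of the 10 genes in each region, as a point with its 95% interval; filled points passed (adjusted p under 0.05) and open points did not, and the Plin4 panel has a wider axis than the others. Plin4 lies between 1.55 and 2.55, the filled points of the other genes between 0.16 and 0.88, and all intervals of Sgk1, Nfkbia, Per1 and Ddit4 include 0.

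With the counts of the 6 regions summed for each mouse, 5 of the 10 genes passed (8.56% of all genes did, 4.71% upwards). Plin4 was 2.05 ± 0.27 higher on the log2 scale, Cdkn1a 0.33 ± 0.07, Tsc22d3 0.30 ± 0.08, Mt2 0.29 ± 0.07 and Klf9 0.09 ± 0.03. Fkbp5 rose by 0.27 ± 0.07 in the sums and passed in the same 5 regions as Plin4, by 0.24 in HC to 0.39 in PFC.

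Other genes known to respond to glucocorticoids were counted from a list of 24 that leaves out the 10 and includes Fkbp5. This list, like the others below, was chosen with earlier results of these data known, so its counts are a description and not independent support. In each region except Nacc 4 to 6 of them rose and none fell: 4 in PFC and ACC, and 6 in BLA (of 23 tested), DMT and HC, with 0 in Nacc. Of all genes, 4.81% rose in PFC, 2.42% in ACC, 0.825% in BLA, 1.04% in DMT and 0.821% in HC. Mfsd2a, a lipid transporter of brain endothelium, rose in 5 regions by 0.40 to 0.54, and Fam107a, an actin-binding protein of astrocytes, rose in 4 by 0.34 to 0.40. Sult1a1, a sulfotransferase, rose in 4 regions by 0.58 to 0.73, and Hif3a, a hypoxia-inducible factor subunit, in DMT (0.87) and HC (0.79). Genes that carry or read the hormone signal were counted apart. Of 9 receptor and chaperone genes, Fkbp4, the counterpart of FKBP51 that favours receptor transport, rose by 0.13 in PFC and 0.16 in HC, and Ptges3 (p23) by 0.12 in PFC and DMT. Hsp90aa1 rose by 0.09 in PFC and ACC, and Nr3c2, the mineralocorticoid receptor, fell by 0.16 in HC. The glucocorticoid receptor gene itself, Nr3c1, did not pass in any region.

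Related pathways were read in the same way, and their calls stand beside the shares of all genes given above for each region. Among 15 other clock genes, Per2 rose in 5 regions by 0.25 to 0.43 and Per3 in PFC and ACC by 0.24 and 0.18, Npas2 rose in BLA and PFC, and Nr1d1 fell in ACC (by 0.19) and PFC (by 0.24), against no call for Per1. Among 10 immediate early genes, which neurons switch on with activity, Fosb passed in 5 regions (0.44 to 0.85), and the others passed in none. Of 10 NF-kappaB genes Rela fell in DMT (by 0.09), and of 10 genes of the integrated stress and hypoxia responses Ddit3 rose by 0.24 in PFC and ACC and Atf4 by 0.08 in PFC. Marker lists of cell types and regions held these calls: Gja1 of 6 astrocyte markers, Slco1a4 of 8 endothelial and mural markers and P2ry12 of 6 microglial markers were lower in ACC (by 0.10, 0.18 and 0.17), and Opalin of 8 oligodendrocyte markers in HC (by 0.55). Nr3c2, also 1 of 5 hippocampal neuron markers, was lower in HC as given above. Without a call, the median log2 difference of choroid plexus markers was 1.08 in DMT and -1.18 in HC, that of olfactory bulb markers -0.94 in ACC and -0.31 in Nacc, and that of meningeal markers -0.32 in ACC and -0.30 in PFC. When the levels of marker lists entered the fit as covariates, 13 combinations of the 10 genes passed, Mt2 in PFC among them, and 3 of the 15 did not. Tsc22d3 in DMT was then 0.24 (adjusted p = 0.0575), in ACC 0.19 (adjusted p = 0.262), and Cdkn1a in ACC 0.22 (adjusted p = 0.140).

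Mouse 57, a Ctrl_Veh mouse killed after the encounter, stood apart in these genes. It exceeded the other 5 mice of its group in all 6 regions for 9 of the 10 genes, and for Per1 in 2 of 6. Its Plin4 level was 9.83 to 17.9 times the median of the other 5 (in DMT 71.2 CPM, against 2.78, 7.24 and 8.002 CPM for their lowest, median and highest). For Cdkn1a the ratio was 1.42 to 5.15, for Zbtb16 1.37 to 3.85, for Tsc22d3 1.98 to 3.20 and for Mt2 1.81 to 2.78. It was the highest of all 20 mice after the encounter in 40 of the 60 gene and region values. Its marker levels stood outside those of the other 5 mice in some regions. Endothelial and mural markers lay below them in 4 of 6 regions (302 CPM against 335 to 369 CPM in DMT) and oligodendrocyte markers in 2. Red blood cell markers lay above them in 3 (374 CPM against 118 to 144 CPM in PFC), meningeal markers above in 2 (105.025 CPM against 20.6 to 62.5 CPM in PFC) and below in 1, and astrocyte, cortical excitatory and hippocampal neuron markers above in 2 each. Microglial, choroid plexus, striatal and thalamic markers lay above them in 1 region each and those of basolateral amygdala neurons below in 1, and the part of these in the values of mouse 57 was not tested. Without this mouse the social difference in Plin4 was 1.53 in PFC, 2.05 in ACC, 1.36 in BLA, 1.89 in DMT and 1.43 in HC, each still past the threshold, and 0.95 in Nacc. Of the 15 calls 14 passed, and Cdkn1a in BLA was 0.26 (adjusted p = 0.0580).

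The mice of the 3 conditions were compared within each set. ELA_Veh against Ctrl_Veh asks what the early adversity left behind, and ELA_SAFit2 against ELA_Veh what the drug changed. None of the 10 genes passed in any region, in 180 tests without the encounter or 180 after it, and 0 was also the count with DESeq2. Over all genes and regions 0.00105% passed for ELA_Veh against Ctrl_Veh in each set, and 0.00105% (without the encounter) and 0 (after it) for ELA_SAFit2 against ELA_Veh. Without the encounter 0 of the 180 tests of these genes had an unadjusted p under 0.05, where 4.58%, 5.19% and 2.99% of all genes had for ELA_Veh against Ctrl_Veh, ELA_SAFit2 against ELA_Veh and ELA_SAFit2 against Ctrl_Veh. After it 5 of 60 had for ELA_Veh against Ctrl_Veh, 1 of 60 for ELA_SAFit2 against ELA_Veh and 8 of 60 for ELA_SAFit2 against Ctrl_Veh, beside 4.91%, 3.87% and 4.72% of all genes. These 3 comparisons share their groups. The counts moved with the fit: they were 5 without and 13 after the encounter when mouse 57 was left out, 4 and 4 when each set was fitted alone, and 5 and 4 with blocks of 8 mouse numbers. Over all genes and regions such tests numbered 12115 without and 12827 after the encounter in the main fit. They were 12156 and 14396 without mouse 57, 11984 and 10652 with each set alone, and 12169 and 11156 with the blocks.

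Without the encounter the size of the estimates differed between genes. For ELA_Veh against Ctrl_Veh the log2 differences over the 6 regions ranged from -0.11 to 0.09 for Per1, -0.06 to 0.05 for Klf9, -0.15 to 0.10 for Sgk1 and -0.04 to 0.12 for Ddit4. They ranged more widely for Tsc22d3 (-0.04 to 0.41), Zbtb16 (-0.15 to 0.30), Cdkn1a (-0.27 to 0.08) and Plin4 (-0.15 to 0.50). For ELA_SAFit2 against ELA_Veh the widest ranges were those of Zbtb16 (-0.58 to 0.02), Plin4 (-0.49 to 0.21), Tsc22d3 (-0.40 to 0.05) and Cdkn1a (-0.10 to 0.36), and none of these values passed. The intervals set how far such values can be read. For ELA_SAFit2 against ELA_Veh the widest was 0.48 wide for Ddit4 and 2.84 for Plin4, so that for Plin4 only large changes could have passed. The ranges above include the 12 Nacc libraries that resembled another mouse, and they are not given without them. In Nacc without the encounter, Tsc22d3 reached 82.5 CPM with these libraries and 46.5 CPM without them. Plin4 reached 6.41 CPM with them and 1.85 CPM without. Their part in the wider ranges was not tested. With both sets pooled, the lowest adjusted p among the 10 genes was that of Klf9 in ACC for ELA_SAFit2 against ELA_Veh (-0.11, 95% interval -0.18 to -0.04, adjusted p = 0.535). It was 0.675 for ELA_SAFit2 against Ctrl_Veh (Klf9 in DMT, -0.10, -0.17 to -0.03) and 0.728 for ELA_Veh against Ctrl_Veh (Cdkn1a in HC, -0.35, -0.63 to -0.07).

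After the encounter, Plin4 turned on mouse 57. In the summed counts Ctrl_Veh mice had 2.22, 4.07 and 42.5 CPM (n = 6), ELA_Veh mice 3.47, 5.58 and 7.82 CPM (n = 7) and ELA_SAFit2 mice 1.78, 3.99 and 13.2 CPM (n = 7). The 3 groups overlapped. With all mice the log2 difference of ELA_Veh against Ctrl_Veh was -0.94 (95% interval -1.86 to -0.01, adjusted p = 0.851), and without mouse 57 it was 0.50 (-0.15 to 1.15, adjusted p = 0.787), so that 1 mouse set its direction. All 6 regions moved the same way, from between -1.28 and -0.66 with all mice to between 0.34 and 0.77 without mouse 57. ELA_SAFit2 against ELA_Veh was -0.06 with and without that mouse (intervals -0.95 to 0.83 and -0.64 to 0.52). Mouse 57 is in neither of these groups, so leaving it out could hardly move this estimate and does not test it. Without mouse 57, Tsc22d3 was 0.23 (0.04 to 0.41, adjusted p = 0.665) and Mt2 0.22 (0.03 to 0.42, adjusted p = 0.670) for ELA_Veh against Ctrl_Veh in the sums, where with all mice they were -0.06 and -0.03.

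**Figure D4:**
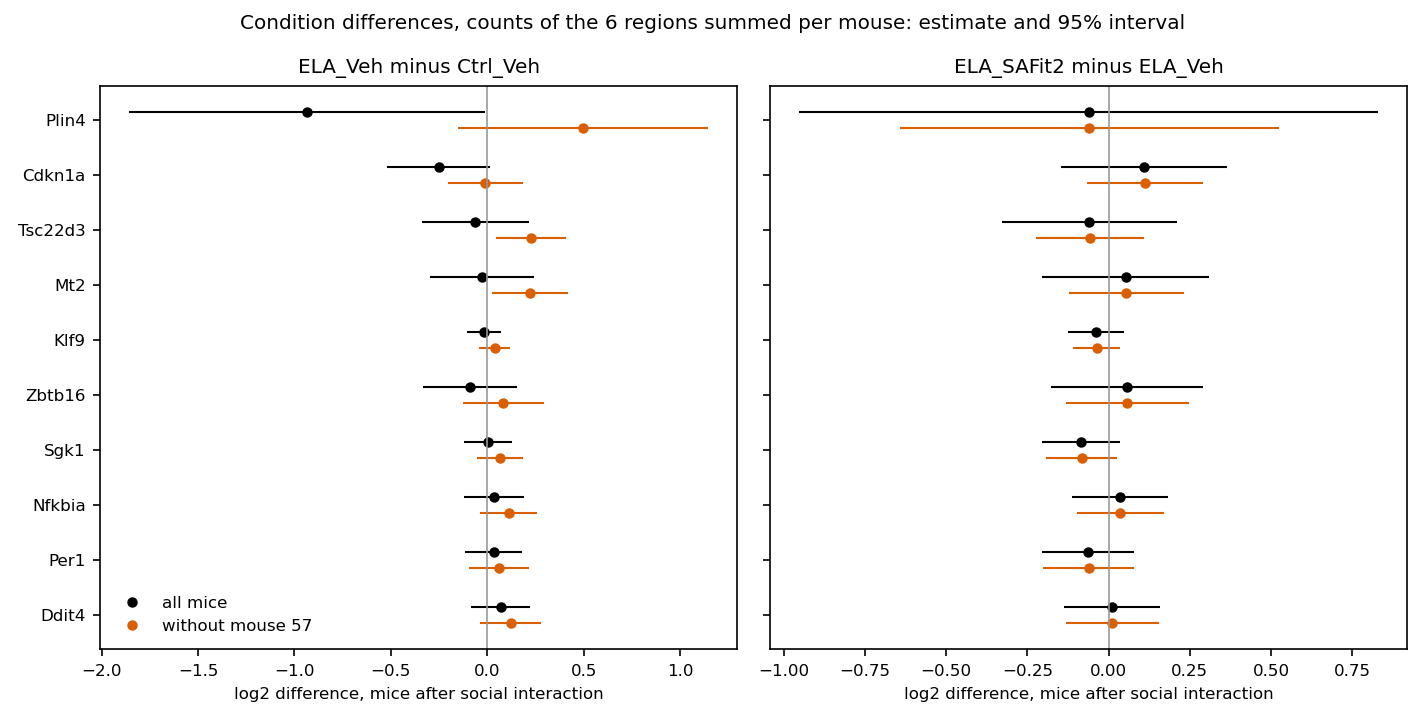
Log2 differences between conditions in mice after the encounter, counts of 6 regions summed per mouse, for the 10 genes: ELA_Veh minus Ctrl_Veh on the left and ELA_SAFit2 minus ELA_Veh on the right, with 95% intervals; black is all mice and orange leaves out mouse 57. On the left Plin4 moves from -0.94 to 0.50 when mouse 57 is left out. On the right the values with and without it nearly coincide, since mouse 57 is in neither group compared there.

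The size of the social difference was also compared between conditions. No gene of the 10 passed for ELA_Veh minus Ctrl_Veh or for ELA_SAFit2 minus ELA_Veh in any region (120 tests; 1 of 60 had an unadjusted p under 0.05 in each comparison, beside 4.77% and 3.99% of all genes). Of all genes and regions 0 and 22 passed (0.0232% for the latter), and DESeq2 called 6 and 16. For Plin4 in the sums the first was -1.01 (95% interval -2.32 to 0.30) and the second -0.02 (-1.31 to 1.27). Within conditions, Plin4 rose by 2.72 in Ctrl_Veh (adjusted p = 0.00987; 0.0288% of all genes passed) and by 1.69 in ELA_SAFit2 (adjusted p = 0.0485; 1.61%), and its value of 1.72 in ELA_Veh did not pass (adjusted p = 0.110; 0.023%). Which conditions passed depended on mouse 57. Without it the values were 1.29 (adjusted p = 0.364; 0.0115% of all genes passed) in Ctrl_Veh, 1.72 (adjusted p = 0.0101; 0.178%) in ELA_Veh and 1.70 (adjusted p = 0.00286; 2.16%) in ELA_SAFit2, and the difference between the first 2 was 0.43 (-0.46 to 1.31).

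Mice differed in these genes in a way that their regions shared. The share of variance between mice, after the group means were removed and over 6 regions, was 0.70 for Plin4, 0.65 for Tsc22d3, 0.64 for Mt2, 0.60 for Ddit4, 0.50 for Nfkbia, 0.47 for Cdkn1a and 0.41 for Per1. It was lower for Zbtb16 (0.29), Sgk1 (0.23) and Klf9 (0.16), and the median over all 17382 genes was 0.082. Without Nacc, Tsc22d3 reached 0.83 and Plin4 0.80. All of these shares include mouse 57, which stood apart as described above, and none was computed without it. Libraries of 1 mouse share its handling and time of death, and the part of these was not tested.

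Levels in the summed counts were then correlated across the 41 mice, after the means of the 6 groups were removed, in 55 pairs (the 10 genes and Fkbp5). Of the 45 pairs among the 10 genes 43 had a Pearson's r above 0 and 22 above 0.5, with a median of 0.50. In a limma fit of every gene on each of the 10, adjusted over all genes, 37 of the 90 ordered pairs passed, and each count is given here beside the share of all genes that passed for the same gene. Tsc22d3 was linked to 7 of the other 9 (4.13% of all genes), Klf9 to 5 (4.84%), Mt2 to 5 (2.4%) and Zbtb16 to 5 (2.36%). Plin4 was linked to 4 (1.43%), Cdkn1a to 4 (1.27%), Sgk1 to 3 (0.535%), Nfkbia to 2 (0.339%), Per1 to 1 (1.86%) and Ddit4 to 1 (0.575%). Much of this rested on mouse 57. Without it the median r was 0.29, 7 pairs were above 0.5 and 6 of 90 ordered pairs passed (3 for Tsc22d3, with 1.53% of all genes, and 1 each for Klf9 with 5.45%, Nfkbia with 0.155% and Ddit4 with 0.61%), and in the 21 mice without the encounter the median r was 0.13 and none passed. In the sum without Nacc 43 passed, and in the 20 mice after the encounter alone 28. The counts over all genes moved too. Without Nacc they were 514 of 17221 for Sgk1 (93 with Nacc), 1007 for Zbtb16 (411), 1031 for Klf9 (841) and 7 for Per1 (324). After the encounter alone they were 413 of 16853 for Tsc22d3 (717 in all mice) and 0 for Per1. In the mice without it they were 234 of 16927 for Klf9 and 0 for Tsc22d3.

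The permutation p-values below are not adjusted for the 55 pairs. Adjusted over these pairs, with mouse 57 included, 28 passed by r and 23 by rho (adjusted p under 0.05). Nfkbia and Ddit4 were linked with and without mouse 57. Pearson's r was 0.77 and Spearman's rho 0.76 (n = 41, both permutation p = 1e-05, the smallest that 100000 permutations can give), 0.74 without the 2 mice farthest from the median of Nfkbia and 0.74 without mouse 57. It was 0.64 in mice without and 0.87 in mice after the encounter. Tsc22d3 and Plin4 had r = 0.80 (permutation p = 0.0004) and rho = 0.53 (permutation p = 0.002), with 0.50 without the 2 farthest mice and 0.63 without mouse 57. Tsc22d3 and Fkbp5 had r = 0.87 (permutation p = 3e-05) and rho = 0.59 (permutation p = 0.0005), with 0.63 and 0.72 under the same omissions. Cdkn1a and Plin4, which both rose after the encounter, had r = 0.52 (permutation p = 0.07) and rho = 0.20 (permutation p = 0.2), and 0.16 without mouse 57, so that this relation rests on that mouse. Per1 was linked to Nfkbia (r = 0.54, permutation p = 0.0005; rho = 0.48, permutation p = 0.002; 0.49 without the 2 farthest mice and 0.53 without mouse 57). The fitted links among these pairs had adjusted p = 0.000336 for Ddit4 on Nfkbia, 1.71e-06 for Plin4 on Tsc22d3, 3.31e-09 for Fkbp5 on Tsc22d3 and 0.0367 for Nfkbia on Per1. The last did not pass without mouse 57 (adjusted p = 0.0540) or in the sum without Nacc (adjusted p = 0.0738).

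**Figure D5:**
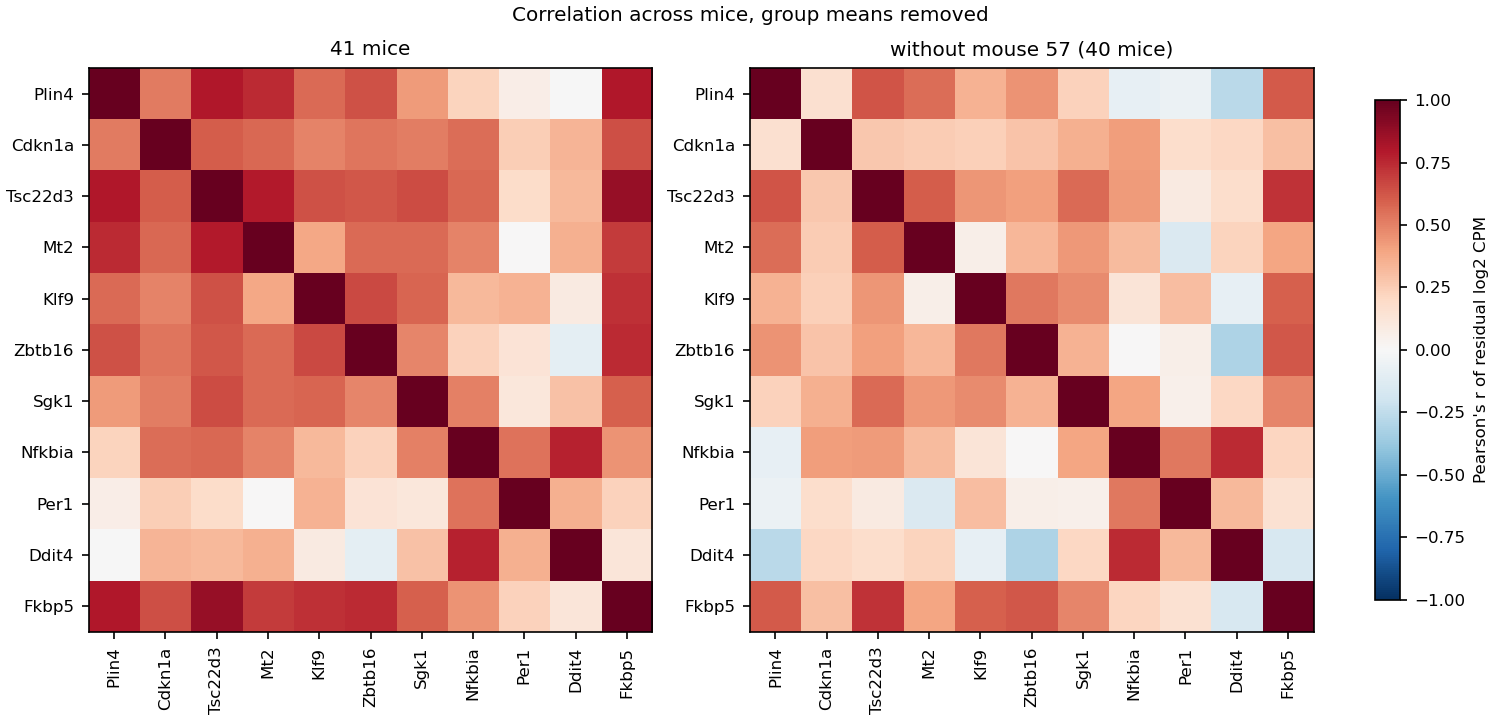
Pearson's r between genes across mice (colour, from -1 to 1) with group means removed and counts of 6 regions summed, for the 10 genes and Fkbp5, over 41 mice on the left and without mouse 57 on the right. The block of Plin4, Tsc22d3, Mt2 and Fkbp5 and the pair Nfkbia and Ddit4 stay above 0.5 or near it on the right (Mt2 with Fkbp5 at 0.40), while the row of Cdkn1a pales from 0.52 to 0.16 with Plin4.

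The genes of the whole table whose levels followed each of the 10 most closely were listed by the same residual correlation over 41 mice. The list includes mouse 57 and was not drawn up without it. In the limma fit, leaving that mouse out took the linked genes from 248 to 3 for Plin4. They went from 220 to 1 for Cdkn1a, from 93 to 0 for Sgk1 and from 411 to 38 for Zbtb16. For Klf9 they rose from 841 to 946 and for Ddit4 from 100 to 106, and they fell for the others. Mt2 was followed by Mt1 (r = 0.95), its neighbour in the metallothionein family, then Sult1a1 and Pnpla7 (both 0.85), and Plin4 by Mfsd2a (0.86), Pglyrp1 and Pla2g3 (both 0.81). Tsc22d3 was followed by Adipor2 (0.90), Slc2a1 (0.89), the glucose transporter of the blood-brain barrier, and Fkbp5 (0.87), and Zbtb16 by Mertk (0.84), Hif3a (0.83) and Spns2 (0.81). Ddit4 was followed by Tob2 (0.89), Irf2bp2 (0.87) and Dusp1 (0.83), a phosphatase of MAP kinases, and Nfkbia by Ddit4 (0.77), Zfp189 (0.74) and Pim3 (0.72). Per1 was followed by Midn (0.76), Pcgf3 and Tmem170b (both 0.71), Klf9 by Fam83d (0.79), Adcy9 (0.76) and Nmt1 (0.75), Cdkn1a by Rhob (0.75), Tlr7 (0.74) and Runx1 (0.74), and Sgk1 by Plekhf1 (0.75), Pkp2 (0.71) and Mlec (0.69).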

How the data were processed

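Poly-A RNA from bilateral punches of 6 regions of 41 mice was sequenced, 1 library per mouse and region. The authors deposited 1 table of estimated counts per gene (expected counts, so 12.1% of the values were not whole), which was made with salmon as its name states. The submitters' processing notes name STAR and DESeq2 and the build GRCm39; versions are not given in the sources used here. Groups came from the labels, and mice are the replicates. Adversity and drug were assigned by litter, and the labels do not name the litters. Littermates within a group could not be accounted for, so intervals between conditions may be too narrow.

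Here these values were rounded to integers. Protein-coding genes were kept if their counts added up to 100 or more and they were present in 6 or more libraries, and they were tested in each region with edgeR 4.0.16 (quasi-likelihood, TMM factors, Benjamini-Hochberg adjustment over all genes of the region, threshold 0.05) in R 4.3.3, with 1 coefficient for each condition and set. Regions were compared with mouse as the block, since the labels give each mouse 1 library per region. Associations across mice were fitted with limma 3.58.1 on log2 CPM (prior count 2) of counts summed over regions, with group means removed, and permutation tests were two-sided. In the large fits the dispersion trend was computed on every 8th gene and interpolated. The scripts were tested on simulated data.

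Alternatives were DESeq2 1.42.0, RLE factors, no filter, marker levels as covariates, a smaller prior count, no mouse block, and leaving out the mismatched Nacc libraries. Leaving out mouse 57 and the test of 1 region against the others were chosen after seeing the data. The 10 genes and the gene lists were chosen with earlier results of these data known. All 10 genes were tested in every comparison, though not every value is printed. Fkbp5 is given for the social differences and the correlations across mice only, and not between regions or conditions. Up to 4 called genes of each other list are named, and the 3 genes most like each of the 10. Levels of different genes are not compared, since CPM is not per length. Intervals are at 95%. Among libraries of the same region, condition and set, none was found to be deposited in duplicate. Libraries of different groups were not compared for this.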

Additional observations from a re-analysis of the deposited data

Results flagged for a closer look

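In the counts summed over 6 regions, 9 of 60 groups of a gene, set and condition held a mouse farther from the others than Dixon's test on log2 CPM allows at the 95% level. Mouse 57 (Ctrl_Veh, after the encounter) was the highest of its group in 7 of them: Plin4 at 42.5 CPM (next mouse 5.05), Tsc22d3 at 96.1 CPM (46.2), Zbtb16 at 77.0 CPM (46.9), Cdkn1a at 28.8 CPM (14.3), Klf9 at 262 CPM (216), Nfkbia at 14.3 CPM (11.4) and Ddit4 at 31.7 CPM (26.8). In the single regions 49 of 360 groups held such a mouse. With regions and sums counted together, it was mouse 57 in 27 groups. Mouse 63 (ELA_SAFit2, after the encounter) was high for Tsc22d3, at 63.8 CPM (48.2). Mouse 21 (ELA_Veh) was low for Per1, at 80.0 CPM (97.4).

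The social difference of 1 region departed from that of the other regions in 3 cases by the interaction test. Cdkn1a in DMT lay 0.51 above the others on the log2 scale. Plin4 in Nacc lay at -0.66 and Cdkn1a in Nacc at -0.37, and neither of these passed once the 12 Nacc libraries that resembled another mouse were left out.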

How the results depend on the processing

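The count of 15 social differences among the 10 genes was 15 with RLE factors, 14 with no filter, 16 with DESeq2, 13 with marker covariates, 14 without mouse 57 and 16 without the mismatched Nacc libraries, and the 5 in the summed counts were 5 in each setting run. Plin4 changed sign in Nacc against the other regions (from -0.66 with all libraries to 0.16) without the mismatched libraries, and in ELA_Veh against Ctrl_Veh after the encounter (from -0.94 with all mice to 0.50 in the sums) without mouse 57, and neither the 0.16 nor the 0.50 passed. With no filter Cdkn1a in BLA was 0.35 (adjusted p = 0.0679). The 37 links across mice were 6 without mouse 57, 0 in the 21 mice without the encounter alone, 28 in the 20 mice after it alone, 43 in the sum without Nacc and 37 with a prior count of 0.5. The links over all genes moved as well, as given with the correlations above. The regional departures fell from 3 to 1 without the mismatched libraries and to 1 without Nacc. Region differences numbered 126 with the mouse as a block, 113 with no replicate block and 128 without the mismatched libraries. Over all genes the social counts moved by more than 1.5 times under some settings: with DESeq2 to 469 from 239 in BLA, 382 from 253 in DMT and 304 from 190 in HC; with marker covariates to 1768 from 1170 in PFC, 139 from 653 in ACC, 584 in BLA, 116 in DMT and 70 in HC; with no filter to 715 in PFC, 347 in ACC, 90 in BLA, 147 in DMT and 99 in HC; without mouse 57 to 108 in BLA and 96 in HC. DESeq2 called 45 condition differences without the encounter (edgeR 2) and 77 after it (edgeR 1), none among the 10 genes. Tests of the 10 genes between conditions with an unadjusted p under 0.05 numbered 0 without and 14 after the encounter. They were 5 and 13 without mouse 57, 5 and 4 with blocks of 8 mouse numbers, and 4 and 4 with each set fitted alone. With marker covariates they were 2 and 7, and with DESeq2 1 and 12. Over all genes the same counts were 12115 and 12827 in the main fit, 13791 and 17306 with marker covariates, and 12271 and 12820 with DESeq2. Those of the other fits are given with the condition tests above. The cause of these shifts was not tested. Plin4 was counted least, with 10 to 1860 counts per library.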
